A study of Mus musculus with 4 samples.

Results

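The SOCS family comprises 8 genes in the mouse, Socs1 to Socs7 and Cish, whose products shut down signalling from cytokine receptors. Its members were taken as all probe sets whose annotated gene symbol was one of these 8 names, which gave 24 of the 45101 probe sets on the array. All 8 genes were measured, among 18193 genes with a probe set of their own. The family was selected on the intensities of Socs3, which were higher in Ncstn KO than in WT, so the genotype difference of Socs3 is given as a description, with no test.

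The RNA came from lineage-negative, cKit-positive, Sca1-positive (LSK) bone marrow cells, the fraction that contains hematopoietic stem cells and multipotent progenitors. WT mice were Ncstn flox/flox without cre, and Ncstn KO mice were Ncstn flox/flox Mx1-cre+ littermates. The deleted gene, Ncstn, codes for nicastrin, which is part of the gamma-secretase that releases the active part of Notch receptors, and the Mx1 promoter that drives cre responds to interferon in many cell types. Mice of both groups received polyIC, which induces interferon, at 20 µg per g of body weight in 3 injections from 14 days of age, and were analysed 4 weeks later, at 6 weeks of age. Only the Ncstn KO mice carried the transgene, so the loss of Ncstn and the presence of Mx1-cre cannot be told apart. Each group had 2 arrays, hybridized with RNA of 1 female and 1 male.

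SOCS proteins are made in response to the cytokine signals they then limit. A cytokine receptor activates Jak kinases, which activate Stat transcription factors, and Stat factors switch on SOCS genes; each SOCS protein has an SH2 domain that binds phosphorylated receptor or kinase and a SOCS box that recruits a ubiquitin ligase. In blood-forming cells Socs3 limits signalling through gp130 and the G-CSF receptor, Socs1 limits interferon signalling, and Cish and Socs2 are known targets and inhibitors of Stat5 signalling from growth factor receptors.

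To show the kind of element through which Stat factors reach these genes, the upstream sequences of the family were searched for TTCNNNGAA, the palindrome bound by most Stat dimers, and for TGGGAA on both strands, the core bound by Rbpj, the DNA-binding partner of Notch. The 2 motifs can overlap in a sequence but did not do so here. The RefSeq promoter table (GRCm38.p6) held windows of 300 bases for 4 members, 250 before and 50 after the listed transcript start. Socs3 had 1 TTCNNNGAA match, at -154 to -146, and Cish had 2, at 1 to 9 and 12 to 20, counted from the first transcribed base as 1. Socs1 had 1 TGGGAA match, at -169 to -164, and Socs4 had neither motif. Among 32851 windows of the same length, 8.3% held TTCNNNGAA, 0.457% held it at 2 or more places, and 25.6% held TGGGAA. The stretches with the matches are printed 5′ to 3′ with the matched letters in capitals; a match is a description of the letters and not a binding site.
Socs3 (chr11:117969452-117969580, minus strand, -214 to -86): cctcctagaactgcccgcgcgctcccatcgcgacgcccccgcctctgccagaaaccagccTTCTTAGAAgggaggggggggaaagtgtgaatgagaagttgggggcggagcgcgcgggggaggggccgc
Cish (chr9:107296599-107296678, plus strand, -60 to 20): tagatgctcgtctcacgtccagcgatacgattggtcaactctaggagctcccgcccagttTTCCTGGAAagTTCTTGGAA
Socs1 (chr16:10785640-10785765, minus strand, -229 to -104): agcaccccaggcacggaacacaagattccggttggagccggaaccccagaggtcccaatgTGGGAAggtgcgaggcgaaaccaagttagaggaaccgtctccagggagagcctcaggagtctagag
For Socs3 the listed start lies inside the annotated span of the gene, whose outermost start belongs to a longer transcript.

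The arrays gave RMA probe set intensities, used here as log2, and each difference is the Ncstn KO mean minus the WT mean on that scale, with its standard error (SE) from a limma fit over all genes. Ncstn, the targeted gene, read 9.05 and 8.98 in WT and 7.58 and 7.91 in Ncstn KO. Kit, 1 of the genes that define the sort, lay between 11.57 and 11.94 on all arrays, and Cd34 and Flt3 were also bright. Of 10 measured sort, stem or progenitor genes 4 lay above and 6 below WT, with a median difference of -0.03. Slamf1 (0.83) and Gata2 (0.31) were higher in Ncstn KO with separate groups, as were 21.3% of all genes. Cd34 (-0.03) and Cd48 (-0.10) were lower with separate groups, as were 12.8% of all genes. The median intensity of the arrays ran from 71.6 to 79.2. Of 18193 genes, limma called 0 at the 0.05 threshold for the adjusted p (0% called), while 1237 had an unadjusted p under 0.05, which is 6.8% of all genes, 4.96% higher and 1.84% lower in Ncstn KO. For 1 gene at a time, the smallest p of an exact two-sided permutation test is 0.333 with 2 arrays a group. In bulk RNA, fewer cells of a type and less RNA per cell cannot be told apart.

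Socs3 stood apart from the rest of its family. Its main probe set (1455899_x_at), the brightest of 3, read 9.69 and 9.93 on the WT arrays and 10.89 and 11.13 on the Ncstn KO arrays. Both Ncstn KO arrays therefore lay above both WT arrays, with a gap wider than the distance between replicates of either group. The group means were 9.81 ± 0.17 (SD, n = 2) in WT and 11.01 ± 0.17 (SD, n = 2) in Ncstn KO, a difference of 1.20 (SE 0.16), or 2.30-fold. The difference was 0.96 between the females and 1.44 between the males. Both had to be positive, because both Ncstn KO arrays lay above both WT arrays. Socs3 was chosen for this contrast, so these values are a description only.

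The other probe sets for Socs3 gave differences of the same size. A second set (1456212_x_at) read 9.68 and 9.80 in WT and 10.83 and 11.19 in Ncstn KO, a difference of 1.27. The last (1416576_at) read 8.43 and 8.84 in WT and 9.73 and 10.28 in Ncstn KO, a difference of 1.37. The suffix _x_at marks sets with probes that can also match other transcripts, and the last set carries no such suffix. These 3 differences come from the same 4 RNA samples and are not independent of each other. Without any 1 array the difference of Socs3 ran from 1.08 to 1.32, and the lowest value under any alternative was 1.01, with arrays scaled to the hybridization controls.

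**Figure D1:**
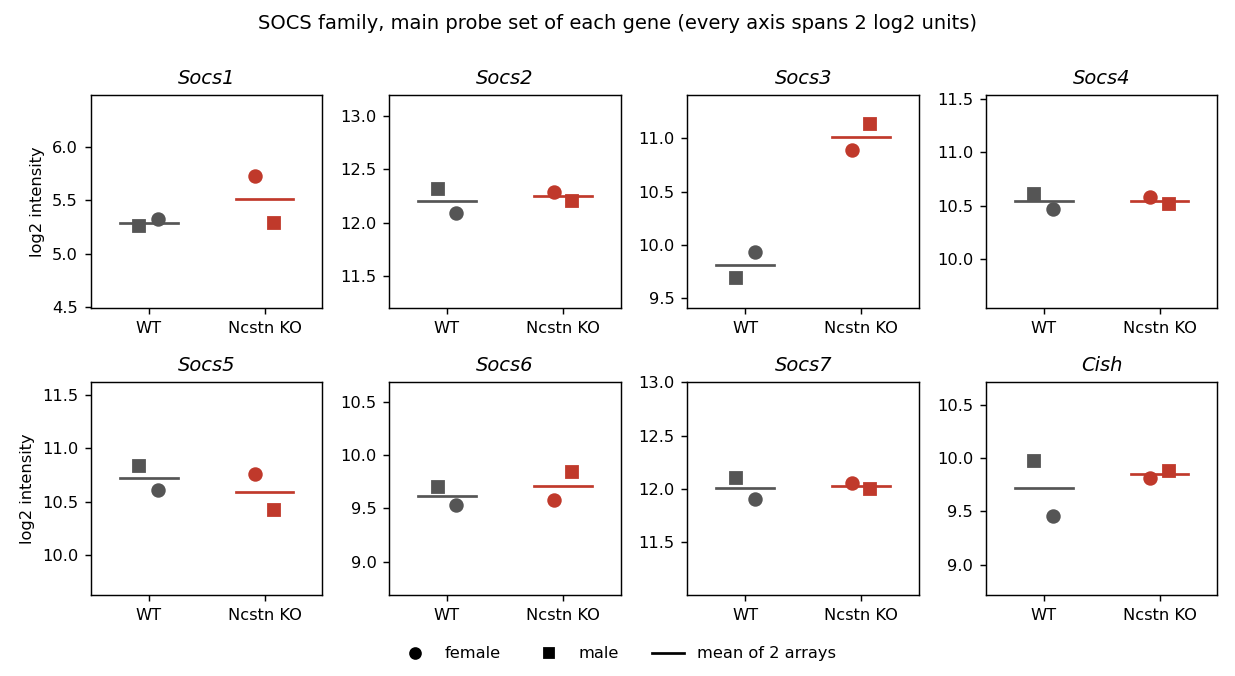
Log2 intensity (y axis) of the main probe set of each SOCS family gene in WT and Ncstn KO mice (x axis). Circles are females, squares are males, the line is the mean of 2 arrays and every y axis spans 2 log2 units. The 2 groups are separate for Socs3 (9.69 to 9.93 against 10.89 to 11.13) and overlap for the other 7 genes.

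Socs1, the nearest relative of Socs3 and like it able to block Jak kinase activity directly, was dim. Its single probe set read 5.26 and 5.32 in WT and 5.73 and 5.29 in Ncstn KO, below the median of all genes (8.04). Only the female Ncstn KO array stood higher, and the groups overlapped. The difference was 0.22 (SE 0.26), with a 95% interval from -0.40 to 0.85, and it was 0.0041 without Ncstn KO replicate 1, the female.

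Cish, the founding member of the family and a Stat5 target, had 1 probe set. It read 9.98 and 9.46 in WT and 9.82 and 9.88 in Ncstn KO. Both Ncstn KO arrays lay between the WT arrays, with a difference of 0.13 (SE 0.21; 95% interval -0.38 to 0.64). The WT mean of Cish was 9.72 ± 0.37 (SD, n = 2), the widest WT spread among the main probe sets of the family.

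Socs2, which limits growth hormone signalling and is also induced through Stat5, was bright and level at its main probe set. The values were 12.31 and 12.09 in WT and 12.29 and 12.20 in Ncstn KO, a difference of 0.05 (SE 0.10; 95% interval -0.21 to 0.30). Its 5 other probe sets were dimmer and scattered, with differences from -0.84 to 0.48. The second brightest had a mean of 10.43 in WT and 10.24 in Ncstn KO, a difference of -0.19 with overlapping groups. Only 1 of the 6 sets had separate groups (1438470_at), at 6.47 and 5.16 in WT and 5.07 and 4.89 in Ncstn KO, and there the WT arrays were far apart.

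Socs4 and Socs5 are close relatives with long amino-terminal regions that have been linked to signalling from the EGF receptor. The main probe set of Socs4 read 10.61 and 10.47 in WT and 10.58 and 10.51 in Ncstn KO, a difference of 0.0058 (SE 0.13; 95% interval -0.31 to 0.32). The dimmer probe sets of Socs4 went against this and against each other. One (1421274_at) read 7.66 and 7.55 in WT and 7.16 and 7.17 in Ncstn KO, another (1421275_s_at) 7.52 and 7.94 against 7.31 and 6.58, and the dimmest (1421273_at) 6.73 and 6.58 against 6.82 and 6.96. Their differences were -0.44, -0.79 and 0.23, each with separate groups. Whether these sets report other transcripts of Socs4 was not tested, and the direction for this gene depends on the probe set chosen.

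Socs5 was the only member whose main value was lower in Ncstn KO. Its main probe set read 10.83 and 10.61 in WT and 10.75 and 10.42 in Ncstn KO, a difference of -0.13 (SE 0.16; 95% interval -0.53 to 0.27). The groups overlapped, the difference being 0.14 in females and -0.41 in males. The second probe set of Socs5 had a difference of -0.034.

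Socs6 and Socs7, which act mainly on receptor tyrosine kinases such as Kit and on insulin signalling, likewise had overlapping groups. Socs6 read 9.70 and 9.53 in WT and 9.58 and 9.84 in Ncstn KO at its main probe set, a difference of 0.09 (SE 0.18; 95% interval -0.34 to 0.52). Its other sets had differences of -0.24 and -0.36, so the sign turned with the probe set. Socs7 read 12.10 and 11.91 in WT and 12.06 and 12.00 in Ncstn KO, a difference of 0.02 (SE 0.10; 95% interval -0.22 to 0.27). Its 3 other sets had differences of 0.20, 0.09 and -0.24.

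The female and the male pair differed in opposite directions for the main values of 5 of 8 members, namely Socs2, Socs4, Socs5, Socs7 and Cish, against 44.3% of all genes. Over the family as a whole, 7 of 8 main values lay above WT, as did 55.8% of all genes. That count fell to 2 of 8 with the arrays scaled to the hybridization controls, where 21.4% of all genes lay above WT. This scaling moved the median of all genes from 0.02 to -0.17. The count was 4 of 8 with the mean over a gene's probe sets, against 54.7% of all genes. It was 3 of 8 without WT replicate 2, against 59.3%, and 4 of 8 without Ncstn KO replicate 1, against 45.7%. Under the scaling to the controls Socs1 and Socs3 stayed above WT. Apart from Socs3 and the dim Socs1, the widest 95% interval bound of a member was 0.64, or 1.56-fold, for Cish. These intervals do not show that the members were equal between genotypes. The main values of 1 of 8 members were separate between groups in the upward direction, against 21.3% of all genes, and 0 in the downward direction, against 12.8%. At a change of at least 2-fold with separate groups, the count was 1 of 8 upward, where 1.19% of all genes were 2-fold higher; this contrast chose the family, and nothing is read from the count.

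Among the 21 probe sets of the 7 other genes, 11 lay above and 10 below WT. Of these 2 had both Ncstn KO arrays above both WT arrays, against 19.1% of all probe sets naming 1 gene, and 5 had both below, against 13.8%. The sets with separate groups were at Socs2, Socs4, Socs6 and Socs7, and none was the main set of its gene.

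**Figure D2:**
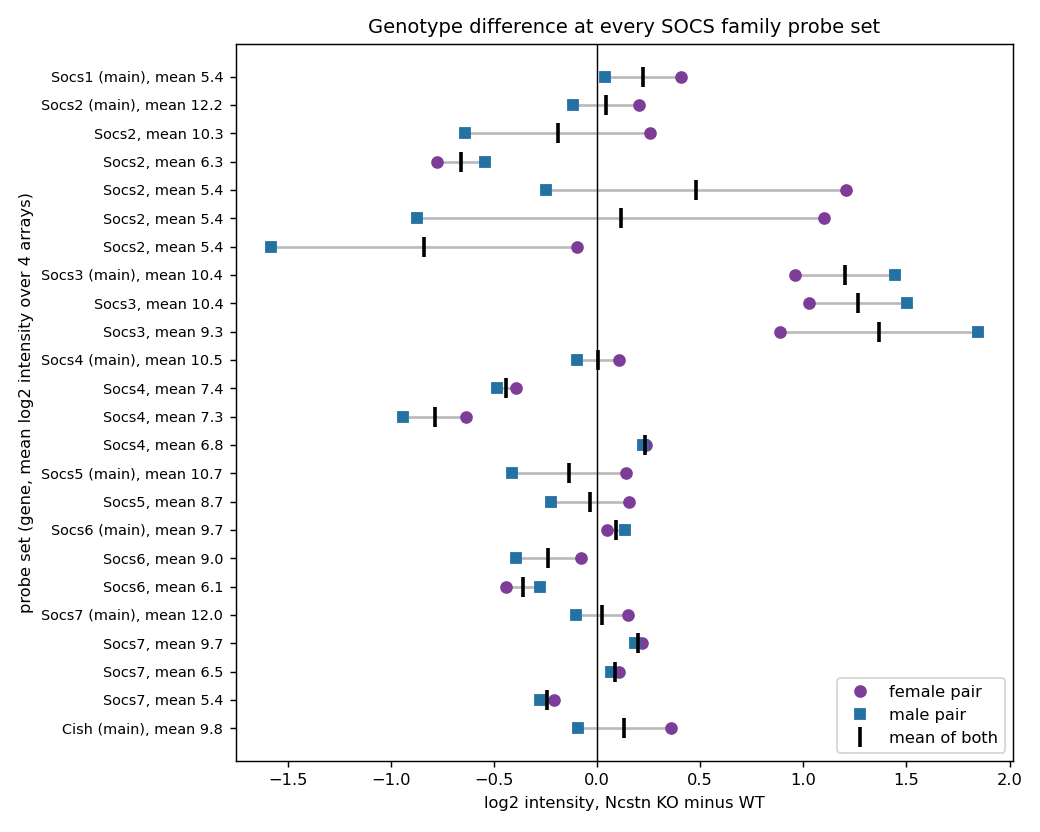
Log2 intensity difference, Ncstn KO minus WT (x axis), at each of the 24 SOCS family probe sets (y axis, with gene and mean log2 intensity). Circles are the female pair, squares the male pair and the bar their mean; all 3 Socs3 sets lie between 0.89 and 1.85 in both pairs, while 9 of the 21 other sets have pairs on opposite sides of 0.

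Sex was not used in choosing the family, so a comparison of the 2 female with the 2 male arrays is independent of it. In a limma fit with genotype as a further term, 0 of 8 members passed, and the smallest adjusted p among them was 0.608, for Cish; over all genes 4 passed (0.022% called), and 8.58% of genes had an unadjusted p under 0.05, which none of the members had. Cish was lower in females by a log2 difference of -0.29 (SE 0.17), and Socs6 by -0.21 (SE 0.14). Socs1 was 0.25 (SE 0.22) higher in females. The female minus male difference of Socs3 was 0.0026 (SE 0.16). In 6 of 8 members, all but Socs3 and Socs5, the estimated difference between the sexes was larger in size than that between genotypes, as it was for 53.8% of all genes.

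The genes whose values followed those of Socs3 most closely over the 4 arrays were named by the root mean square difference between centred log2 values, among genes brighter than the median. They were Csf2rb2, an alternative beta chain of the IL-3 receptor, at a distance of 0.046, Lmna, which encodes lamin A, at 0.064, Elane, the neutrophil elastase gene of granulocyte precursors, at 0.099, Oosp1 at 0.11 and Fbp1, a gluconeogenic enzyme gene, at 0.11. Csf2rb2 read 9.15 and 9.39 in WT and 10.40 and 10.71 in Ncstn KO. It was chosen as nearest to Socs3 on these arrays, so the shared pattern follows from the choice. The other members of the family lay at 0.55 for Socs1 to 0.72 for Socs5 on this measure, on both sides of the median of all genes, 0.62. Likeness over 4 arrays describes these samples and says nothing of shared control.

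**Figure D3:**
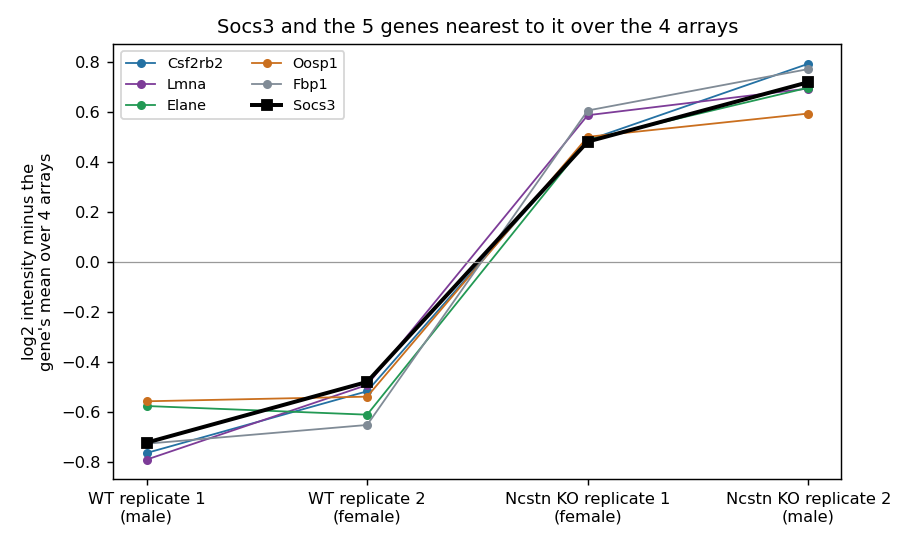
Log2 intensity minus each gene's mean over the 4 arrays (y axis) on each array (x axis) for Socs3 (black squares) and the 5 nearest genes (coloured circles). All 6 genes lie below their mean on both WT arrays and above it on both Ncstn KO arrays. The 5 genes were chosen for their likeness to Socs3 on these arrays, so the shared pattern follows from the choice. Csf2rb2 is nearest to Socs3, at a root mean square difference of 0.046.

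Several lists of genes of mature and committed cells had higher summed intensities on the arrays where Socs3 was higher. All 13 measured mature neutrophil genes had higher means in Ncstn KO, with a summed intensity of 44770 to 56110 in WT and 50730 to 68960 in Ncstn KO, so that the sums overlapped. For 9 granulocyte-macrophage progenitor genes the sums were 35810 to 36360 against 50510 to 51120, with 8 members above WT. For 11 monocyte and macrophage genes they were 3440 to 3789 against 6870 to 8733, with 7 above WT, and for 8 basophil and mast cell genes 2718 to 3031 against 5364 to 6839, with 8 above WT. No probe set on the arrays had a linear intensity below 3.32, so a value above 0 does not show that a marker was expressed. Dimmer than the median of all genes were 2 of 13 neutrophil and 0 of 9 granulocyte-macrophage progenitor genes. The same held for 6 of 11 monocyte and macrophage and 3 of 8 basophil and mast cell genes. It also held for 5 of 9 B cell, 4 of 10 erythroid and megakaryocyte and 6 of 9 T and NK cell genes. B cell genes summed to 5267 to 5355 in WT and to 3954 and 8634 in Ncstn KO, with 5 of 9 above WT. Erythroid and megakaryocyte genes summed to 4412 to 5766 against 5853 to 8106, with 7 of 10 above WT and 3 below. Their differences ran from -1.84 to 1.33, with a median of 0.22. T and NK cell genes summed to 7847 to 7962 against 7881 to 8538, with 3 of 9 above WT. The part of these cells in the difference of Socs3 was not tested.

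Upstream of the family, the cytokines that act through gp130 or the G-CSF receptor gave no common direction. Of 7 measured ligands 4 lay above and 3 below WT, 0 passed, and the median difference was 0.03, against 0.02 over all genes. Leaving out any 1 of the 4 arrays turned this median negative, to between -0.18 and -0.01. Il6, the cytokine best known for inducing Socs3, read 4.14 and 4.35 in WT and 3.38 and 3.01 in Ncstn KO, a difference of -1.05 (SE 0.20, limma adjusted p = 0.308). These are dim values, well below the median of all genes. Clcf1 had a difference of -0.51 (SE 0.35), Lif of -0.33 (SE 0.27) and Osm of 0.14 (SE 0.22), also short of the threshold. The difference of Clcf1 was -1.02 without Ncstn KO replicate 2 and near 0 without Ncstn KO replicate 1. That of Osm was -0.13 without Ncstn KO replicate 2. Lif, with a mean of 5.98, was dim as well.

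Among 9 measured gp130-type receptors, 3 lay above and 6 below WT, 0 passed, and the median difference was -0.10. The median was -0.27 without Ncstn KO replicate 1 and turned to 0.05 without Ncstn KO replicate 2. Lifr, the receptor chain that pairs with gp130 to bind leukemia inhibitory factor, had the largest difference around the family. Lifr was dim, with a mean of 6.72 over the 4 arrays, below the median of all genes (8.04). It read 5.52 and 5.85 in WT and 7.42 and 8.08 in Ncstn KO, with separate groups. The difference was 2.07 (SE 0.31, or 4.19-fold, limma adjusted p = 0.212). It was 1.57 between the females and 2.56 between the males, each 1 array against 1. Il6st, which encodes gp130 itself, had a difference of -0.08 (SE 0.12), Csf3r, the G-CSF receptor gene, of -0.28 (SE 0.15), and Lepr, the leptin receptor gene, of -0.73 (SE 0.39), and none passed. Lepr was dim, and its difference was -0.27 without Ncstn KO replicate 1 and -0.32 without WT replicate 1.

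Receptors that signal through Stat5 lay above WT in 9 of 12 measured genes, with 0 called and a median difference of 0.15, from 0.13 to 0.23 without any 1 array. An unadjusted p under 0.05 was reached by 4 of the 12, all higher, against 4.96% of all genes in that direction. Csf2rb2 had a difference of 1.28 (SE 0.18, limma adjusted p = 0.196), and Csf2rb, the common beta chain for IL-3, GM-CSF and IL-5, of 0.49 (SE 0.10, limma adjusted p = 0.365). Csf2rb and Csf2rb2 are near-identical copies and may share signal. Il2ra was dim and had a difference of 0.88 (SE 0.29), which was 0.51 without Ncstn KO replicate 1. Of 6 interferon receptor genes all lay above WT, as did 55.8% of all genes. None was called, and the median was 0.10, from 0.08 to 0.15 without any 1 array. The female and the male pair differed in opposite directions for 4 of the 6, against 44.3% of all genes. Both Ncstn KO arrays lay above both WT arrays for 2 of the 6, as they did for 21.3% of all genes. Ifngr1 had a difference of 0.45 (SE 0.13), Ifnar2 of 0.14 (SE 0.11), and Ifngr2 of 0.72 (SE 0.40), which was 0.08 without WT replicate 2 and 1.36 without WT replicate 1. With arrays scaled to the hybridization controls, the median was -0.04 over the Stat5 receptors and -0.09 over the interferon receptors, against -0.17 over all genes. Under this scaling Ifnar2 turned its sign.

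Of 10 measured Jak and Stat genes 8 lay above WT and 0 were called, with a median difference of 0.11, which was 0.047 without Ncstn KO replicate 2. Stat3, the factor that induces Socs3 downstream of gp130, read 10.68 and 10.55 in WT and 10.89 and 10.96 in Ncstn KO. The groups did not overlap, and the difference was 0.31 (SE 0.12, limma adjusted p = 0.713). Jak1 had a difference of 0.14 (SE 0.10), Stat4 of 0.12 (SE 0.12), Jak2 of 0.05 (SE 0.10), Stat5a of -0.04 (SE 0.08) and Stat5b of 0.0053 (SE 0.10). The scaling to the hybridization controls turned the signs of Jak1, Stat4, Jak2 and Stat5b. It moved the median of the list to -0.08, where that of all genes was -0.17. Leaving out a single array could turn the signs of Jak2, Stat5a and Stat5b.

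Known Stat3 target genes other than Socs3 lay above WT in 18 of 21 cases. None was called, and 8 had an unadjusted p under 0.05, all in the upward direction, where 4.96% of all genes did. The median difference was 0.19, from 0.19 to 0.30 without any 1 array, with the highest value without Ncstn KO replicate 1. Lrg1, an acute-phase glycoprotein gene also expressed by neutrophil precursors, read 6.91 and 6.46 in WT and 8.06 and 8.47 in Ncstn KO, a difference of 1.58 (SE 0.28, limma adjusted p = 0.287). Cebpd, a transcription factor gene induced by IL-6 and G-CSF, read 8.31 and 8.06 against 9.05 and 9.21, a difference of 0.94 (SE 0.20, limma adjusted p = 0.375). Il4ra had a difference of 0.45 (SE 0.14), Bcl3 of 0.42 (SE 0.17) and Junb of 0.14 (SE 0.36), the last ranging from -0.41 to 0.68 without any 1 array. Lcn2 stood both in this list and in the mature neutrophil list, and Il6ra both in this list and in the basophil and mast cell list. Il6ra was also among the gp130-type receptors. Stat3 itself stood in the list of its targets and was 1 of the 8. Beside the median of 0.19 for the Stat3 targets, the median difference was 0.60 for the mature neutrophil genes, 0.47 for the granulocyte-macrophage progenitor genes, 0.84 for the monocyte and macrophage genes and 1.32 for the basophil and mast cell genes. The part of these cells in the differences of the Stat3 and Stat5 targets was not tested.

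Stat5 target genes, apart from Cish and Socs2, lay above WT in 11 of 14 cases, with 0 called and a median of 0.16. An unadjusted p under 0.05 was reached by 5 of the 14, all higher, against 4.96% of all genes in that direction. Of these, Pim1 was also counted among the Stat3 targets and Il2ra among the receptors acting through Stat5. Bcl6 and Kit likewise recurred in those lists, and other genes also stood in more than 1 list. The counts of the lists are therefore not separate observations. Pim2, a kinase gene that promotes survival, read 9.11 and 8.99 in WT and 10.04 and 10.43 in Ncstn KO, a difference of 1.19 (SE 0.19, limma adjusted p = 0.233). Pim1, its relative and a target of both Stat3 and Stat5, had a difference of 0.19 (SE 0.08). Gfi1b had a difference of 0.66 (SE 0.24), which was 0.37 without Ncstn KO replicate 1. For the Stat5 targets the list median ran from 0.13 to 0.27 without any 1 array, again highest without Ncstn KO replicate 1. Under the scaling to the hybridization controls the medians of the Stat3 and Stat5 lists were -0.0039 and -0.03, against -0.17 for all genes.

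Targets of interferon gamma signalling through Stat factors, the route that induces Socs1, were split evenly. Of 14 measured genes 7 lay above and 7 below WT, and 0 had an unadjusted p under 0.05, against 6.8% of all genes. The median was -0.01, from -0.10 to 0.07 without any 1 array. Tap1 had a difference of 0.19 (SE 0.10), Gbp3 of 0.18 (SE 0.14) and Irgm1 of -0.17 (SE 0.15). Targets of NF-kB, a pathway that can also induce Socs3, lay above WT in 8 of 15 cases with a median of 0.06. Among them 0 had an unadjusted p under 0.05, against 6.8% of all genes. The median of the NF-kB list ran from -0.19 without Ncstn KO replicate 2 to 0.28 without Ncstn KO replicate 1. Nfkbia had a difference of 0.19 (SE 0.09), Relb of 0.60 (SE 0.28) and Il1b of -0.65 (SE 0.36), which was -0.18 without WT replicate 1 and -1.13 without WT replicate 2. Without Ncstn KO replicate 2 the difference was 0.33 for Relb and 0.10 for Nfkbia. Relb and Il1b were below the median of all genes (8.04), with means of 7.05 and 7.52. The scaling to the hybridization controls turned the signs of Tap1, Gbp3 and Nfkbia, and likewise those of Pim1, Junb and Osm.

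**Figure D4:**
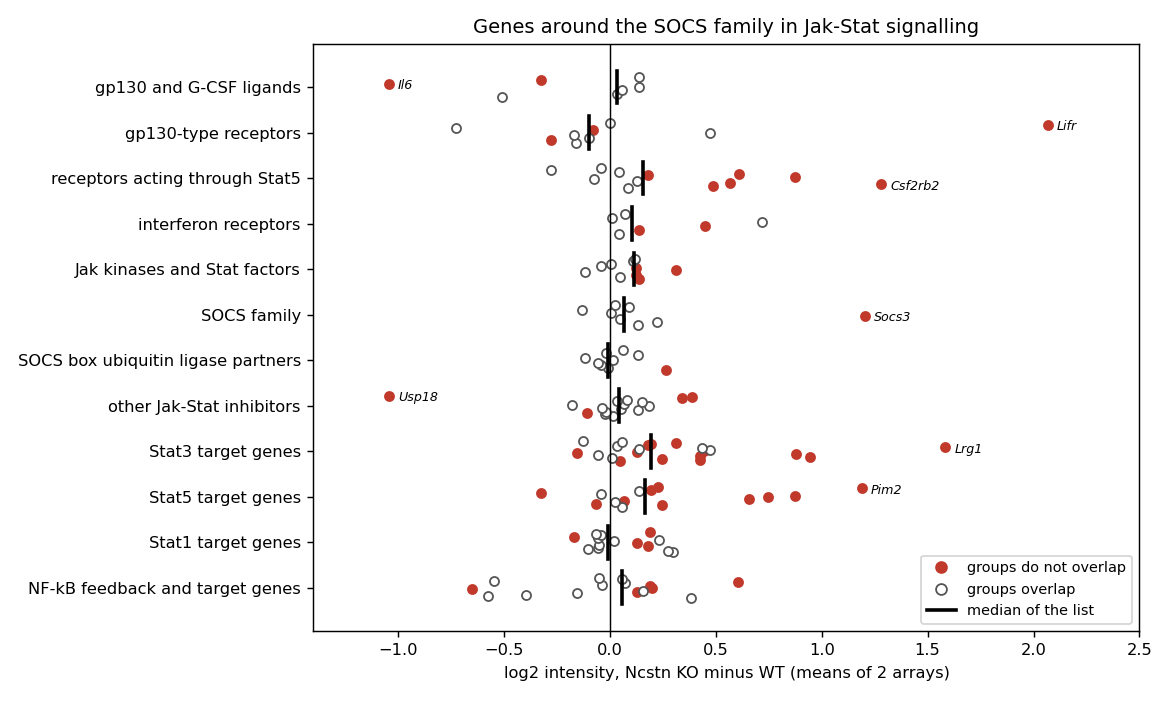
Log2 intensity difference, Ncstn KO minus WT (x axis), for each measured gene of 12 lists of Jak-Stat and neighbouring signalling (y axis). Filled points have groups that do not overlap, open points have overlapping groups, bars are list medians and genes beyond 1 log2 unit are named; Socs3, at 1.20, lies far from the other members of its family.

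SOCS proteins mark their targets for degradation together with the subunits of a ubiquitin ligase. Of 9 genes for the SOCS box ubiquitin ligase 1 had an unadjusted p under 0.05 (Arih2, higher), as did 4.96% of all genes in that direction. None was called, 4 lay above and 5 below WT, and the median was -0.0075. That median ran from -0.07 to 0.02 without any 1 array. With the scaling to the hybridization controls it was -0.20, against -0.17 for all genes. Arih2, a ligase that works with Cul5, had a difference of 0.26 (SE 0.10), Nedd8 of -0.12 (SE 0.09), Elob, the elongin B subunit gene, of -0.06 (SE 0.09) and Cul5, the scaffold, of -0.04 (SE 0.20). The difference of Cul5 was 0.16 without WT replicate 1, that of Nedd8 was -0.018 without WT replicate 2, and that of Elob was 0.02 without either WT replicate 2 or Ncstn KO replicate 2.

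Inhibitors of Jak-Stat signalling outside the SOCS family lay above WT in 10 of 16 cases, with 0 called and a median of 0.04, which was -0.03 without WT replicate 1. Usp18, an interferon-induced inhibitor of the interferon receptor, differed in the opposite direction to Socs3. It read 9.02 and 9.17 in WT and 8.53 and 7.57 in Ncstn KO, a difference of -1.04 (SE 0.34, limma adjusted p = 0.613) that was -0.56 without Ncstn KO replicate 2. Sla, an adaptor that lowers surface receptor levels, had a difference of 0.34 (SE 0.08) and its relative Sla2 of 0.39 (SE 0.18). The phosphatase genes Ptpn6 and Ptpn11 had differences of 0.15 (SE 0.14) and -0.18 (SE 0.13), and Sh2b3, which restrains signalling from growth factor receptors in stem cells, of 0.08 (SE 0.11). None of these genes passed, and the scaling to the hybridization controls turned the signs of Ptpn6 and Sh2b3. Ptpn6 also turned without Ncstn KO replicate 2.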

How the data were processed

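RNA from LSK cells of 4 mice was hybridized to Affymetrix arrays after amplification from 5 ng of total RNA, per the labels' protocols. The deposited values are linear intensities made with RMA per the submitters' processing notes, its version and background model being not given in the sources used here. Values ran from 3.32 to 23642.56 and log2 was taken. Without values of single probes, signal over background could not be judged, and the number of arrays limits precision.

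Control probe sets (64) were left out. The platform annotation of 2016 named 1 gene for 34945 probe sets, several for 932 and none for 9160. Each gene took its brightest probe set. Tests used limma 3.58.1 in R 4.3.3 (lmFit, eBayes with trend, two-sided, Benjamini-Hochberg at 0.05 over 18193 genes), after the code was tested on simulated data; figures used matplotlib 3.10.9. Replicates came from mice of different sex.

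The members, lists and tests were chosen with earlier results of these data known. Named genes were the 8 members, up to 3 genes per list with the smallest unadjusted p, genes fixed by name and the 5 nearest to Socs3; Kit, Cd34, Flt3 and Lcn2 were added. Some list members were not analysed here. Alternatives were other scalings, probe set rules, filters, variance models, blocks and each array left out. Elements were searched in RefSeq promoter sequences, GRCm38.p6.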

Additional observations from a re-analysis of the deposited data

Results flagged for a closer look

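For 14 of the 53 genes named by rule, the female and the male pair differed in opposite directions between Ncstn KO and WT, as did 44.3% of all genes. Each pair is 1 array against 1, and the difference between the pairs was not tested.

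In the SOCS family this held for 5 members. The genotype difference in females minus that in males was 0.32 for Socs2, 0.20 for Socs4, 0.55 for Socs5, 0.26 for Socs7 and 0.45 for Cish on the log2 scale, and all of these were higher in Ncstn KO females and lower in Ncstn KO males. Around the family the same quantity was 0.46 for Cul5, 1.45 for Ifngr2, 0.44 for Ptpn11, 0.10 for Stat5a and 0.18 for Stat5b. It had the other sign for Junb (-0.94), Osm (-0.79), Ptpn6 (-0.50) and Sh2b3 (-0.19).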

How the results depend on the processing

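Socs3 and Socs1 stayed above WT under all alternatives run for them, but Socs1 only by 0.026 with the scaling to the hybridization controls and by 0.0041 to 0.44 without any 1 array. That scaling, to controls that were 0.195 brighter in Ncstn KO, turned Socs2 (-0.15), Socs4 (-0.19), Socs6 (-0.10), Socs7 (-0.17) and Cish (-0.062). It left 2 of 8 members above WT, and 21.4% of all genes. The mean over probe sets turned Socs2 (-0.17), Socs4 (-0.25) and Socs6 (-0.17), leaving 4 above. Without any 1 array, values ran from -0.068 to 0.16 for Socs2, -0.063 to 0.075 for Socs4, -0.30 to 0.034 for Socs5, -0.038 to 0.22 for Socs6, -0.074 to 0.12 for Socs7 and -0.13 to 0.39 for Cish, with 3 to 7 members above WT.

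Genes called between genotypes were 3 after quantile normalization, 62 after centring on medians, 2 without dim genes and 0 to 27 without any 1 array. Genes changed 2-fold with separate groups were 311, and 80 without dim genes, 190 with 16 added to the intensity and 419 to 566 without any 1 array. They split into 217 higher and 94 lower, or 111 and 168 after the scaling to the controls. Genes called between sexes were 58 after centring on medians, 2 without dim genes and 0 without the variance trend. Why the counts moved was not tested, except that the filter left 9097 genes; leaving out 1 array left no residual degree of freedom for sex.

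The replicate number as a block left the genotype count at 0 and gave 0 genes for sex. Deviations of arrays sharing a number correlated at -0.242 across genes, and those of arrays sharing a sex at 0.242. The arrays of a group deviate from its mean by equal and opposite amounts, so these correlations are the same value with opposite signs. The correlation therefore cannot decide whether the replicate numbers paired the arrays. The crossed pairing is that by sex, and with sex as a term 0 genes were called between genotypes. Dim probe sets, such as that of Socs1, limit what can be detected.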
